A study of Mus musculus with 16 samples.

Results

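Slc19a1, the reduced folate carrier, and 9 enzymes that use or retain the folate it brings in were followed across a panel of drug-resistant mouse T-cell leukaemia cultures. The enzymes were Tyms, Fpgs, Ggh, Shmt1, Shmt2, Mthfd1, Mthfd2, Gart and Atic. The 10 genes were chosen by name from the 13474 genes of the deposited expression table, and all 10 had a row and passed the filter on low values. They were read in all 16 libraries, each resistant derivative beside the parental culture of its own line.

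The cultures were T-cell lymphoblastic leukaemia lines of thymic origin. Resistant cultures came from line 7298 (SCL/LMO1 transgenic; cytarabine), then from 4 lines of Mcm2cre/cre genotype. These were 2883 (cytarabine, vincristine, etoposide, prednisone and methotrexate), 2696 (vincristine and etoposide), 2641 (prednisone) and 2869 (cytarabine and vincristine). The references were the 5 parental cultures, 1 per line, labelled as treated with PBS. The SCL/LMO1 line has a cytarabine derivative alone, and its 2 libraries also enter the comparison of all resistant cultures, the contrasts with cytarabine and the spread shared by all fits. The libraries of the other 4 lines all carry the Mcm2cre allele. Each culture was sequenced once, so 3 cytarabine, 3 vincristine, 2 etoposide, 2 prednisone and 1 methotrexate derivatives were available. The labels do not say whether a derivative is 1 clone, and a p-value measures only the spread between these cultures. The 5 derivatives of 2883 share 1 parental library.

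Folates carry single carbon units for the synthesis of purines and thymidylate, which dividing leukaemia cells need for DNA. Slc19a1 imports reduced folates and the antifolate methotrexate. Fpgs adds glutamates that keep both in the cell, and Ggh removes them.

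Depth was 14066000 to 18956000 reads in the 11 resistant libraries and 12142000 to 13498000 in the 5 parental ones, so depth separated the groups completely. Its part in the results was not tested. Of the T lineage markers 14 of 14 had a row, with a summed level of 3950 to 7061 CPM (reads of a gene relative to all reads of its library) in resistant and 3924 to 7060 CPM in parental libraries. Cd3d, Cd3e, Cd3g and Lck were at 139 CPM or more in every library, but Cd4 had a median of 0.871 CPM and Cd5 of 2.23 CPM, and Cd4 reached 0 reads. Of the B lineage, erythroid, and stroma and epithelium markers, 0 of 3 in each list had a row. Among myeloid markers only Itgam did, at 2.74 to 22.7 CPM in resistant and 6.93 to 33.1 CPM in parental libraries. The summed level of 5 proliferation genes was 2211 to 5121 CPM in resistant and 3394 to 4786 CPM in parental libraries, and 0.651 to 1.26 of the parental value within lines.

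The promoters below are shown because Slc19a1 had no reads in 1 culture and because Tyms and Mthfd2 had the smallest p-values among the genes. Each runs from 250 bases before to 50 bases after the start, 5′ to 3′, from RefSeq (GRCm38.p6). Capitals mark matches on either strand. The motif CCAAT is known for NF-Y, the motif GGGCGG for Sp1, and the motif CACGTG for E-box factors. The motifs TGATGNAA, known for ATF4, and TGACGTCA, known for CREB, were searched as well.
Slc19a1, first start (chr10:77032489-77032788, plus strand): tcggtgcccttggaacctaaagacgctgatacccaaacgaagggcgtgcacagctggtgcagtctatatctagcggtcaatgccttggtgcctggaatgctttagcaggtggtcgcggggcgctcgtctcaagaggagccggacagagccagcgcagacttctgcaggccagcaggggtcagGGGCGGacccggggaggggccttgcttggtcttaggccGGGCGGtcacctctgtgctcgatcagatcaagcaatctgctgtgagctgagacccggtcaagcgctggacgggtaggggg
Slc19a1, second start (chr10:77032962-77033261, plus strand): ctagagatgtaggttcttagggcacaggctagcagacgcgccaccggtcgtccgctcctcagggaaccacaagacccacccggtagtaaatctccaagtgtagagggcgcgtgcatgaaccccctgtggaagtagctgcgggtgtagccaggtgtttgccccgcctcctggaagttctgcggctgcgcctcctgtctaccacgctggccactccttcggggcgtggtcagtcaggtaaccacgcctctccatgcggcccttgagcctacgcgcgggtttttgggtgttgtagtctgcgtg
Tyms (chr5:30073576-30073875, minus strand): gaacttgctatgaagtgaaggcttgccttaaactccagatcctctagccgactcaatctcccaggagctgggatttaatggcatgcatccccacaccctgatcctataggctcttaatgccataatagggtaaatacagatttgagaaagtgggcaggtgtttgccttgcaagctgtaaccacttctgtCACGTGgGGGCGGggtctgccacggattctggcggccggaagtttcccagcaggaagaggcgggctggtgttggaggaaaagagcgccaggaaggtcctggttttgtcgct
Mthfd2 (chr6:83317555-83317854, minus strand): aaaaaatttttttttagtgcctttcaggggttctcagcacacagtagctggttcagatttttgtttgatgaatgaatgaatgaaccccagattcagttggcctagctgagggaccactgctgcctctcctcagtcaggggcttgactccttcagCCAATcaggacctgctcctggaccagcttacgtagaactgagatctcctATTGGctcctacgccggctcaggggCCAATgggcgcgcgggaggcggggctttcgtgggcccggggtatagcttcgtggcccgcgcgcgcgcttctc

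Of the 10 genes, 9 had a promoter in the table, with 10 entries in all because Slc19a1 has 2 starts; Ggh had none. GGGCGG was found in 7 genes, against 35.7% of the 32851 promoters of that length. CCAAT was found in 6 genes, against 37.4%, and CACGTG in 2 (Tyms and Atic), against 7.15%. TGATGNAA and TGACGTCA were found in 0 genes, against 3.97% and 1.79% of all promoters. The first Slc19a1 start held 2 GGGCGG matches and the second none of the motifs, Tyms held CACGTG and GGGCGG 1 base apart, and Mthfd2 held 3 CCAAT matches. Shmt2 held none of the motifs. A match describes these letters and is not a binding site.

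Compared per kilobase of exon, so that genes of different length can be set side by side, Shmt2 was the most abundant in every library, and Ggh had the lowest median. The median level over the 16 libraries, in CPM per kilobase, was 126 for Shmt2, 54.3 for Mthfd2, 46.4 for Gart, 41.3 for Atic, 33.6 for Mthfd1, 30.7 for Shmt1, 17.7 for Tyms, 6.96 for Fpgs, 6.23 for Slc19a1 and 2.59 for Ggh. Shmt2, the mitochondrial serine hydroxymethyltransferase, ran from 75.1 to 236 CPM per kilobase. Mthfd2 (27.1 to 101) and Gart (34.4 to 119) overlapped over most of their range, so their order in this list is not fixed. Atic, Mthfd1 and Shmt1 overlapped likewise, and so did Fpgs with Slc19a1. Ggh overlapped Slc19a1 too, and was above it in the 2883 cytarabine and methotrexate derivatives and in the 7298 parental library.

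In the tests across all 13261 genes that passed the filter, none of the 10 genes passed the adjusted threshold for cytarabine, vincristine, etoposide or prednisone, and methotrexate, with 1 derivative, was not tested. This does not show that the genes did not differ, since no gene of the table passed either. Limma called 0 of 10 in the cytarabine, vincristine, etoposide and prednisone comparisons and in the comparison of all resistant with all parental cultures. It called 0 genes in the whole table in each of these 5 comparisons (0% of 13261). At an unadjusted p under 0.05 it marked 1 of 10 for cytarabine (9.42% of all genes), 2 of 10 for vincristine (13%), 0 of 10 for etoposide (8.68%), 1 of 10 for prednisone (8.46%) and 0 of 10 for all resistant cultures (8.33%). The median log2 fold change over the 10 genes was 0.13 for cytarabine, 0.28 for vincristine, 0.07 for etoposide, 0.25 for prednisone and 0.16 for all resistant cultures, beside 0.02, -0.04, -0.02, -0.01 and -0.01 over all genes. All changes are on log2(CPM + 1), where positive means higher in the resistant cultures. Each line term is fitted from all libraries of that line, so a drug estimate is not the mean of its derivative-to-parental ratios. For prednisone the median log2 ratio over the 10 genes was 0.16 in 2883 and 0.14 in 2641, beside the fitted 0.25. Ggh with etoposide was fitted at -0.45 ± 0.47, beside 1.06 of parental in 2883 and 0 reads in both libraries for 2696.

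**Figure D1:**
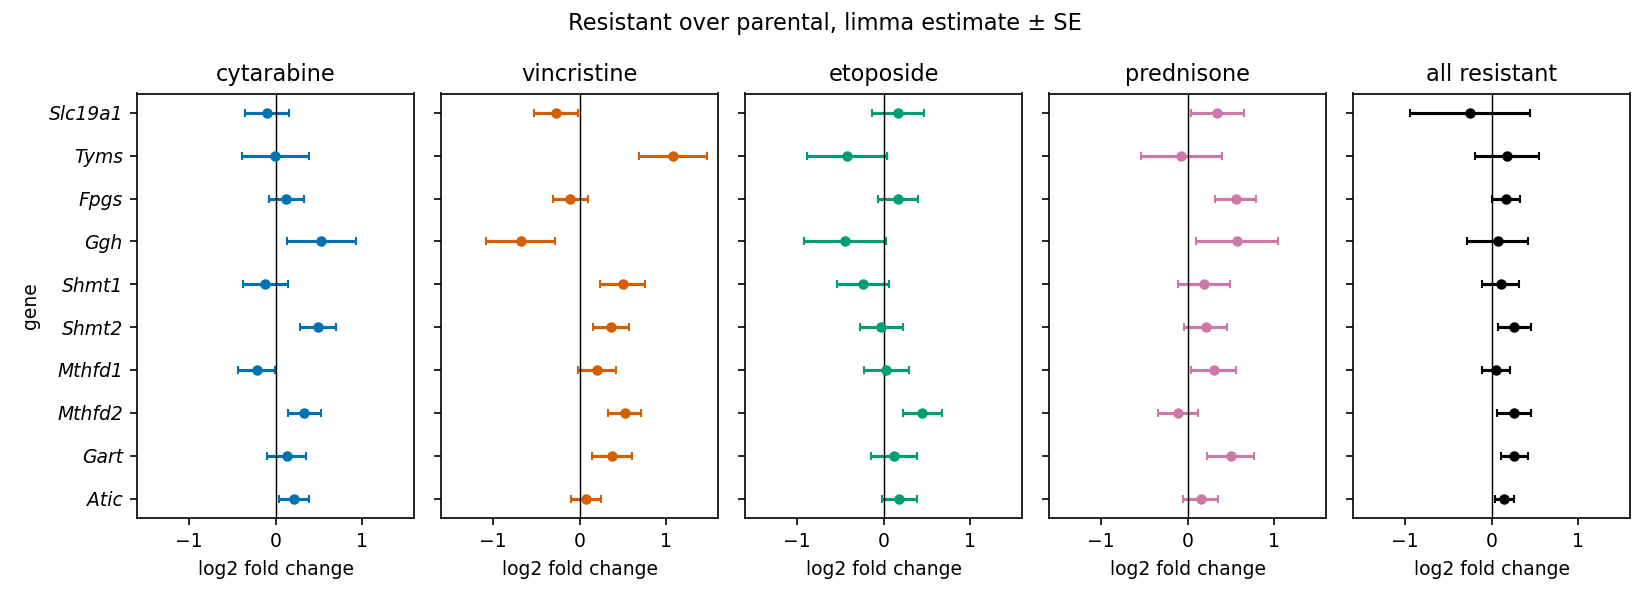
Fitted log2 fold changes on log2(CPM + 1) for each gene (points) with standard errors (bars), in 4 drug groups and in all resistant cultures against parental. No gene was called at an adjusted p of 0.05; Tyms with vincristine, at 1.08 ± 0.39, is the farthest from 0.

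The largest of these estimates was Tyms with vincristine, 1.08 ± 0.39 (SE, 3 derivatives; limma adjusted p = 0.32). Without the 2869 derivative it was 0.49 ± 0.33 (limma adjusted p = 0.689). Mthfd2, a mitochondrial enzyme of the formate pathway, was at 0.52 ± 0.20 with vincristine (limma adjusted p = 0.33). Shmt2 was at 0.49 ± 0.21 with cytarabine (limma adjusted p = 0.527). Its cytarabine derivatives were at 1.49 of parental in 7298, 1.78 in 2883 and 0.973 in 2869. Fpgs was at 0.56 ± 0.24 with prednisone (limma adjusted p = 0.57), and higher in both prednisone derivatives (1.64 and 1.37 of parental). In the other derivatives Fpgs ran from 0.791 of parental in 2869 vincristine to 1.66 in 7298 cytarabine. Slc19a1 was at -0.25 ± 0.69 over all resistant cultures (limma adjusted p = 0.938), and at -0.0031 ± 0.19 without the methotrexate derivative (0.997). None of these passed the adjusted threshold.

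Within lines, most derivatives stayed within 2-fold of their parental library. Of 110 pairs of a gene and a derivative, 107 had at least 50 reads in either library. Of these, 9 differed by at least 2-fold in either direction, or 8.41%. Per derivative, the count past 2-fold was 0 of 10 in 7298 cytarabine (6.43% of all genes), 1 of 10 in 2883 cytarabine (17.5%), 0 of 10 in 2869 cytarabine (11.8%), 0 of 10 in 2883 vincristine (15.6%), 2 of 9 in 2696 vincristine (14.2%) and 1 of 9 in 2869 vincristine (13.3%), leaving the genes without 50 reads aside. It was 1 of 10 in 2883 etoposide (20.8%), 0 of 9 in 2696 etoposide (8.11%), 1 of 10 in 2883 prednisone (12.2%), 0 of 10 in 2641 prednisone (10%) and 3 of 10 in 2883 methotrexate (12%). Over single derivatives the share of all genes ran from 6.43% to 20.8%. The pooled 8.41% of the folate genes was above that share only for 7298 cytarabine and 2696 etoposide. No share pooled over derivatives was computed for all genes.

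**Figure D2:**
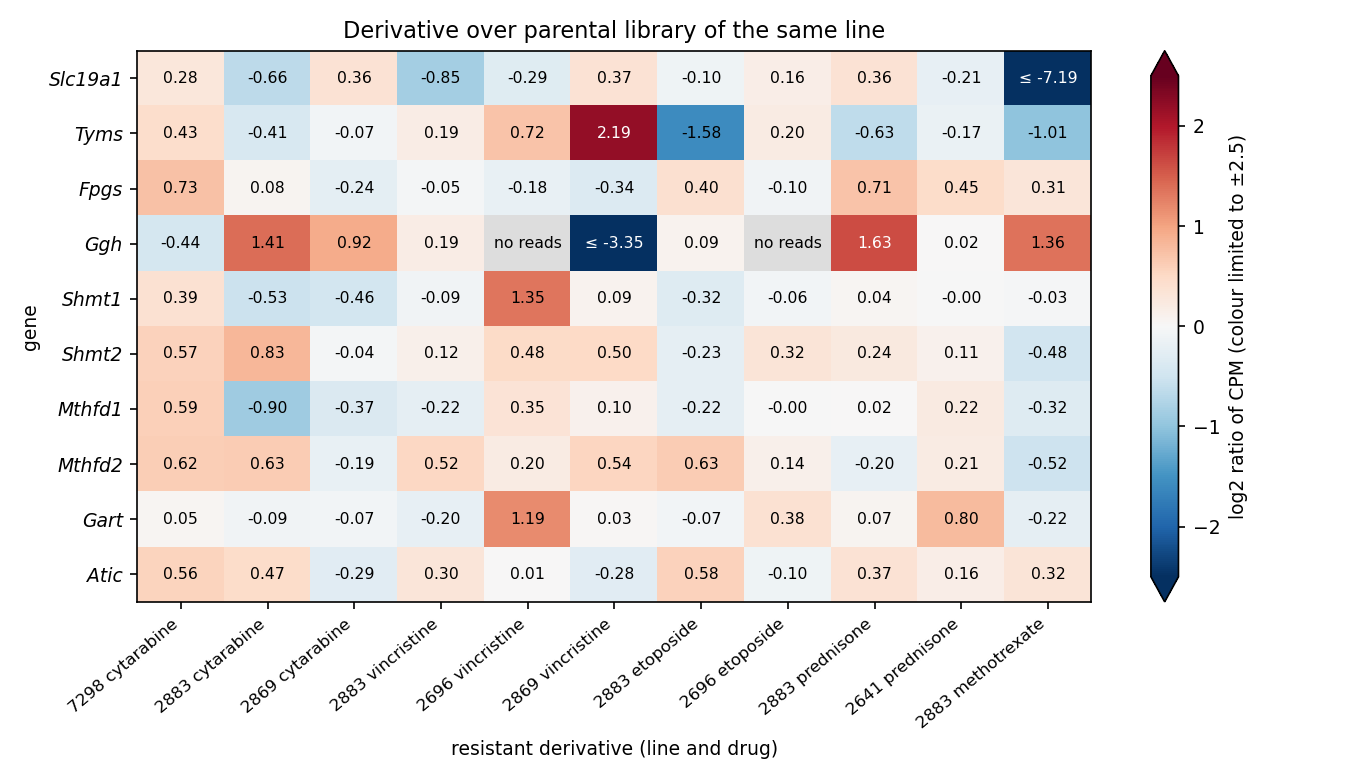
Log2 ratio of CPM in each resistant derivative (columns) to the parental library of its line, for each gene (rows). Red is higher and blue lower in the derivative. The label "no reads" marks a pair with 0 reads in both libraries, and ≤ marks a bound from 0 reads in the derivative. Slc19a1 with methotrexate stands out, as do Tyms and Ggh with vincristine in line 2869. The Ggh bound rests on 24 parental reads.

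Slc19a1 (chr10:77032241-77061002, plus strand, 8 exon blocks) had 0 reads in the methotrexate derivative of 2883, against 377 reads in its parental library. That is at least 146-fold lower, taking 3 reads as the limit that 0 reads allow (0.213 CPM). In the other resistant cultures it was at 28.9 CPM in 7298 cytarabine, 19.6 in 2883 cytarabine, 81.5 in 2869 cytarabine, 17.2 in 2883 vincristine, 20.7 in 2696 vincristine, 82 in 2869 vincristine, 29 in 2883 etoposide, 28.4 in 2696 etoposide, 40 in 2883 prednisone and 40.9 in 2641 prednisone. The parental libraries were at 23.9 CPM in 7298, 31.1 in 2883, 25.4 in 2696, 47.3 in 2641 and 63.5 in 2869. Apart from the methotrexate culture, resistant and parental levels overlapped, and line 2869 was highest in both states. Within 2883, cytarabine (0.631 of parental; 95% exact binomial interval 0.543 to 0.733) and vincristine (0.554; 0.47 to 0.651) were lower than their shared parental library by more than counting error, and prednisone was higher (1.29; 1.13 to 1.46). These intervals cover counting error only. They were taken on recovered reads rounded to whole numbers.

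Among the genes of the table within 500 kb of Slc19a1, most of those read in the parental library of 2883 were also read in the methotrexate culture. The nearest, Pofut2, lay 198 kb after Slc19a1, and no gene of the table lay closer. Adarb1, Fam207a and Itgb2 lay 230, 426 and 469 kb after it. Lss, the only gene before it with reads in the parental library, lay 475 kb away. Adarb1, an RNA-editing enzyme, had 0 reads, against 14 in the parental library (at least 5.41-fold lower). Of those within 500 kb with at least 50 parental reads, Lss, a cholesterol synthesis enzyme, was at 1.93 of parental (1.81 to 2.05), Pofut2 at 0.792 (0.651 to 0.964), Fam207a at 0.599 (0.532 to 0.673) and Itgb2, an integrin of white blood cells, at 0.766 (0.686 to 0.854). The genes whose levels were most like Slc19a1 over 16 libraries were Rxylt1 (r = 0.89), Bcl2l13 (0.88), Lrpap1 (0.88), Rps6ka4 (0.87) and Noc2l (0.87). Over the 15 libraries without the methotrexate derivative these values were 0.67, 0.48, 0.48, 0.46 and 0.84, lower for all 5. In the methotrexate derivative Lrpap1 also had 0 reads, against 279 in the parental library of 2883, and Rxylt1 had 22, against 273. Over the whole table, 570 genes had 0 reads in that derivative, against 420 in the parental library. How many genes fell to 0 reads from a level like that of Slc19a1 was not counted.

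The other folate genes differed less in the methotrexate derivative. Of the 10 genes, 3 passed 2-fold (12% of all genes did): Slc19a1, Tyms at 0.496 of parental (0.46 to 0.535) and Ggh at 2.57 (1.89 to 3.55). Fpgs was at 1.24, Atic at 1.25, Shmt1 at 0.979, Gart at 0.859, Mthfd1 at 0.802, Shmt2 at 0.718 and Mthfd2 at 0.7. With 1 methotrexate library these ratios have no replicate check. Of 39 listed other folate and nucleotide genes with a row, 38 had at least 50 reads in either library, 4 were at least 2-fold higher (6.08% of all genes) and 1 lower (5.88%). The higher ones were the exporters Abcc1 (2.24) and Abcc2 (3.27), Adssl1 (4.35), which makes adenylosuccinate, and Amt (2.42), of the glycine cleavage system. The mitochondrial thymidine kinase Tk2 had 1 read, against 106 in the parental library (ratio 0.00814; 0.000204 to 0.0464).

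**Figure D3:**
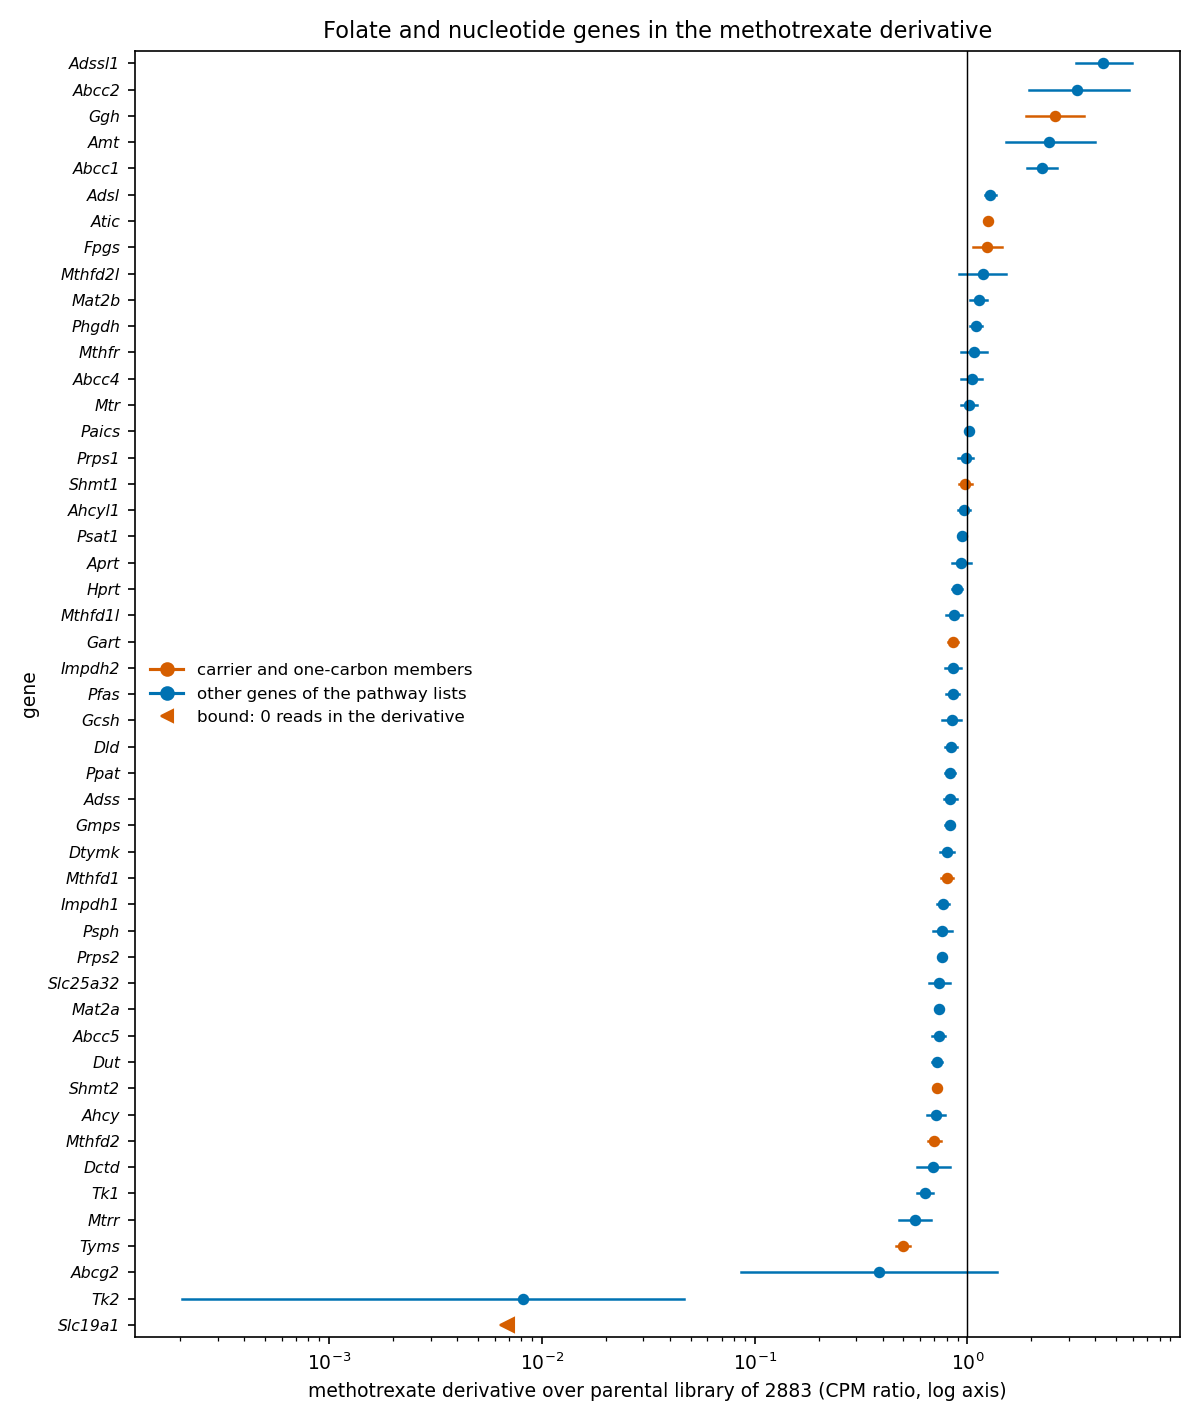
Ratio of CPM in the methotrexate derivative to the parental library of 2883 (log axis) for the 10 genes and 39 others of the folate and nucleotide lists; bars are 95% exact binomial intervals and the triangle is a bound. Slc19a1 lies at its bound, at least 146-fold lower, while most genes lie near 1.

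Tyms (chr5:30058202-30073617, minus strand, 8 exon blocks) makes thymidylate. It was at 437 CPM in the vincristine derivative of 2869, against 95.9 CPM in its parental library (4.56; 4.3 to 4.84). In the other vincristine derivatives it was at 175 CPM in 2883 and 128 in 2696, against 153 and 77.8 in their parental libraries. The etoposide derivatives were at 51.4 CPM in 2883 (0.335 of parental; 0.307 to 0.365) and 89.4 in 2696 (1.15). Cytarabine derivatives were at 123 in 7298, 116 in 2883 and 91.2 in 2869, and prednisone derivatives at 99.5 in 2883 and 132 in 2641, against 90.9, 153, 95.9, 153 and 148 in the parental libraries of those lines. The methotrexate derivative was at 76.1 CPM, against 153 in the parental library of 2883. The 2869 vincristine culture was the highest of all 16 and the 2883 etoposide culture the lowest; the others overlapped. Tyms-ps, a pseudogene with its own row, may share reads; it had 51 reads in the 2869 vincristine culture, against 15 in its parental library.

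Neighbours of Tyms were shifted the same way in the vincristine culture and in part in the etoposide culture. They were looked at after the values of Tyms, and the stretches given below were drawn after the medians along the chromosome had been seen, so their counts only describe these 2 cultures. Of 18 genes within 1 Mb, 18 were at least 2-fold higher in the 2869 vincristine derivative, with a median log2 ratio of 2.24 beside 2.19 for Tyms, against 6.7% of all genes with a mean of at least 100 reads. From 30 Mb before to 10 Mb after Tyms, 133 of 159 genes, Tyms included, were at least 2-fold higher. The stretch 20 to 10 Mb before Tyms held no gene with enough reads. On the rest of the chromosome 34 of 502 genes were, leaving out 5 Mb stretches with fewer than 5 genes. In the 2883 etoposide derivative, 8 of the 18 were at least 2-fold lower (7.4% of all genes) and 1 at least 2-fold higher (9.23%), with a median of -0.85 beside -1.58 for Tyms. From 5 Mb before to 5 Mb after, 34 of 70 genes, Tyms included, were at least 2-fold lower. The 15 genes 20 to 25 Mb before Tyms, which include the efflux pump gene Abcb1a, had a median log2 ratio of 3.77 in the vincristine derivative and 5.56 in the etoposide derivative. In the methotrexate derivative the neighbours had a median of 0.03 beside -1.01 for Tyms.

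**Figure D4:**
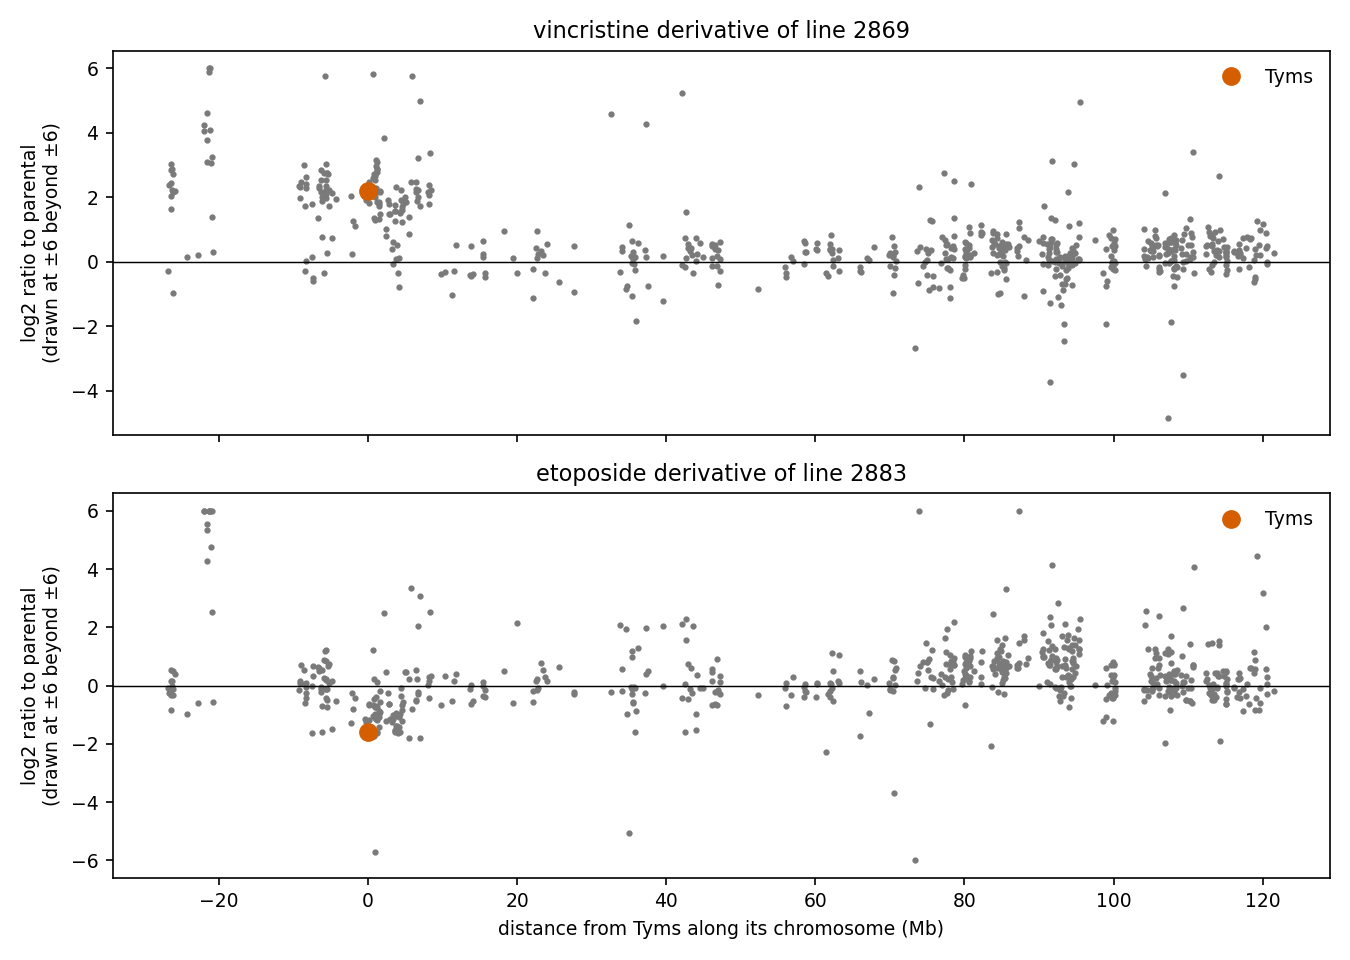
Log2 ratio to the parental library for genes of the chromosome of Tyms (grey points) by distance from Tyms (orange). In the 2869 vincristine derivative many genes up to 10 Mb beyond Tyms lie near 2, and in the 2883 etoposide derivative those within 5 Mb lie near -1.

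Ggh (chr4:20042052-20066750, plus strand, 9 exon blocks), which removes the glutamates that Fpgs (chr2:32682609-32704145, minus strand) adds, had 0 reads in all 3 libraries of line 2696. It also had 0 reads in the 2869 vincristine derivative, against 24 in its parental library (at least 10.2-fold lower). It was at 12.2 CPM in 2883 cytarabine, 11.9 in 2883 methotrexate, 14.3 in 2883 prednisone, 4.92 in 2883 etoposide and 5.28 in 2883 vincristine, against 4.62 CPM in their shared parental library. The cytarabine, methotrexate and prednisone derivatives were 2.65-, 2.57- and 3.09-fold higher, and the etoposide and vincristine ones 1.06 and 1.14 of parental. In the rest it was at 7.47 CPM in 7298 cytarabine, 11.3 in 2641 prednisone and 3.37 in 2869 cytarabine, against 10.2, 11.2 and 1.79 in the parental libraries of those lines. Ggh levels were low, at most 245 reads. Fpgs, at 21.9 to 37.6 CPM in resistant and 20.9 to 34.2 CPM in parental libraries, overlapped between states.

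**Figure D5:**
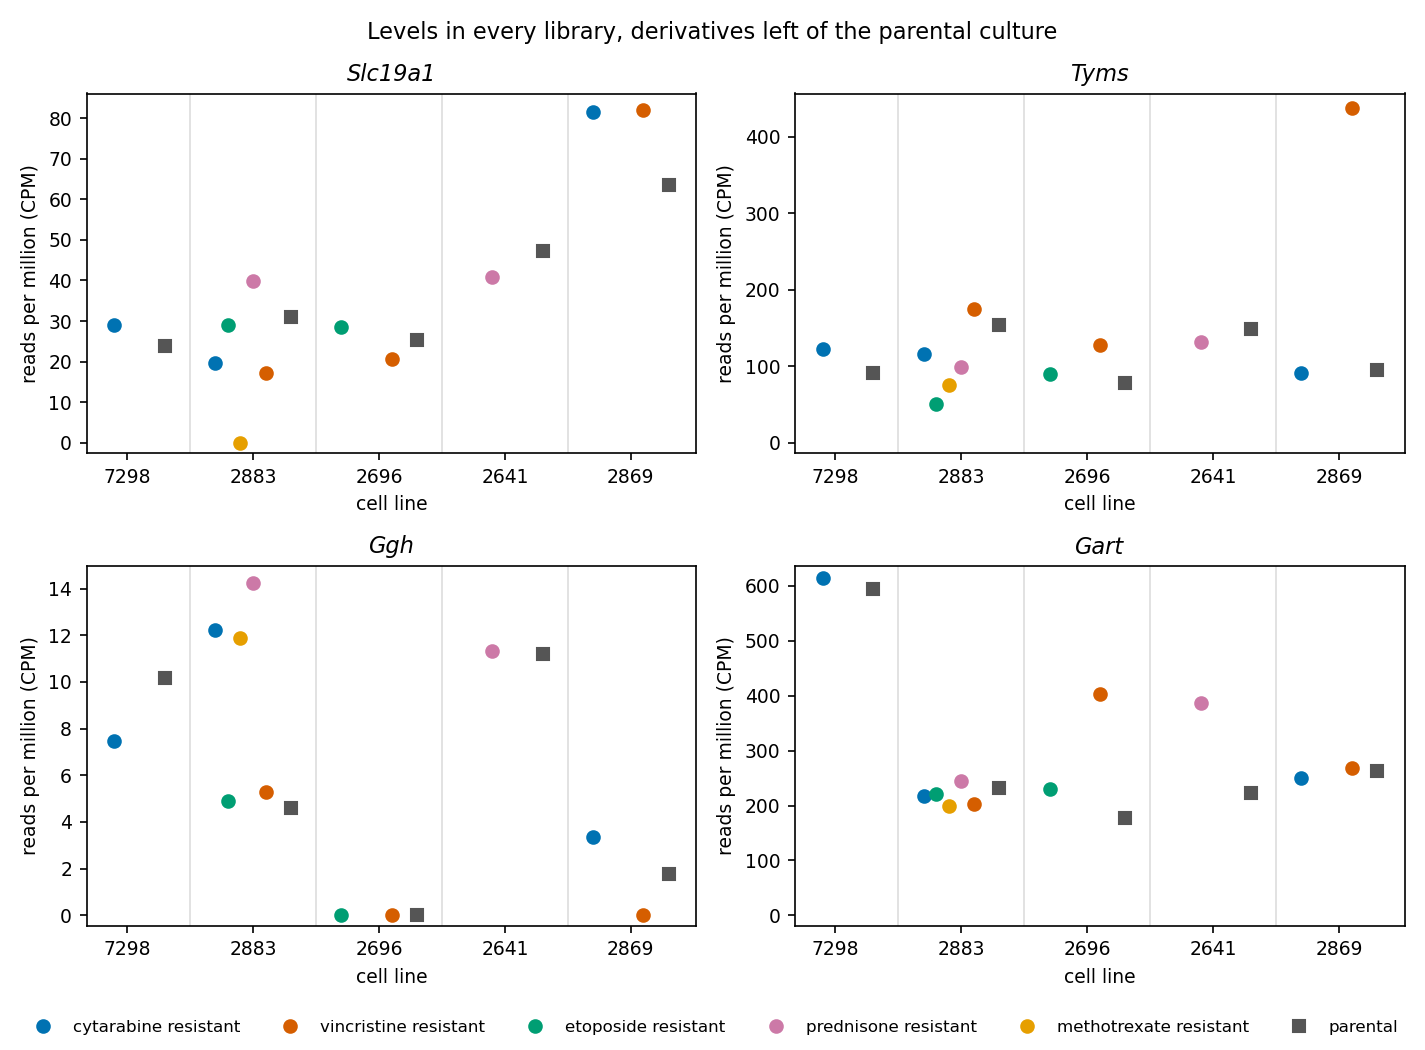
CPM in every library for Slc19a1, Tyms, Ggh and Gart, by cell line; coloured circles are resistant derivatives and grey squares to their right the parental culture. Slc19a1 is at 0 in the methotrexate derivative, Tyms reaches 437 CPM in 2869 vincristine, and Gart lies at 614 and 595 CPM in line 7298.

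Gart (chr16:91621186-91646952, minus strand), a purine synthesis enzyme with several activities, was highest in line 7298. It was at 614 CPM in the 7298 cytarabine derivative and 595 in its parental library, and at 200 to 403 CPM in the other resistant and 177 to 263 CPM in the other parental libraries. In 2696 vincristine it was at 403 CPM, against 177 CPM in the parental library (2.28; 2.17 to 2.39), and in 2641 prednisone at 387 CPM, against 223 CPM (1.74; 1.67 to 1.81). Shmt1 (chr11:60788104-60811718, minus strand), the cytosolic serine hydroxymethyltransferase, was also higher in 2696 vincristine, at 164 CPM against 64.3 CPM (2.54; 2.35 to 2.75). Genes within 1 Mb of both were looked at after these values were seen. In 2696 vincristine, the 27 neighbours of Shmt1 had log2 ratios of 0.08 to 1.28, median 0.62, and 3 were at least 2-fold higher (4.1% of all genes with a mean of at least 100 reads). The 21 neighbours of Gart had a median of 0.56, and 6 were at least 2-fold higher. In the other 10 derivatives Shmt1 was at 0.694 to 1.31 of parental. Antisense gene Gm15964 shares 1014 exon bases with Gart, and Smcr8 184 with Shmt1, so reads there may not be separable if strand was not used in counting. Smcr8 was at 133 CPM in 2696 vincristine, against 64.2 CPM in its parental library, and Gm15964 at 10.7 CPM, against 5.17 CPM. Both overlapping genes are among the neighbours counted above as at least 2-fold higher.

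Shmt2 (chr10:127517123-127522444, minus strand) ranged from 233 CPM in the methotrexate derivative to 734 CPM in 2869 vincristine among resistant libraries, with a median of 399, against 287 to 518 CPM, median 387, in parental ones. Mthfd2 (chr6:83305691-83325908, minus strand) ranged from 94.3 to 350 CPM, median 195, in resistant and from 105 to 241 CPM, median 160, in parental libraries. The methotrexate derivative was the lowest and the 2869 vincristine derivative the highest of all 16 for both genes. Mthfd2 was above parental in 8 of 11 derivatives, at 1.1 to 1.55, and below in 2869 cytarabine (0.875), 2883 prednisone (0.873) and methotrexate (0.7). Mthfd1 (chr12:76255298-76319803, plus strand), the cytosolic enzyme with 3 folate activities, ranged from 96.7 to 182 CPM in resistant and 106 to 180 CPM in parental libraries. Its lowest ratio was 0.537 (0.504 to 0.573) in 2883 cytarabine. Atic (chr1:71557150-71579631, plus strand), which makes the last steps of purine synthesis, ranged from 242 to 451 CPM in resistant and 266 to 443 CPM in parental libraries, and was within 0.82 to 1.49 of parental throughout.

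Direct contrasts between drugs called 0 of the 10 genes in each of 6 comparisons, and 1 gene of the whole table in 1 of them (etoposide minus vincristine, 0.00754%). At an unadjusted p under 0.05 limma marked 2 of 10 for vincristine minus cytarabine (10.2% of all genes), 0 for etoposide minus cytarabine (7.46%), 0 for prednisone minus cytarabine (6.3%), 2 for etoposide minus vincristine (9.28%), 3 for prednisone minus vincristine (9.41%) and 0 for prednisone minus etoposide (9.08%). Among these, Tyms was lower with etoposide than with vincristine (-1.51 ± 0.48; limma adjusted p = 0.511) and higher with vincristine than cytarabine (1.09 ± 0.45; limma adjusted p = 0.484). Ggh was at -1.21 ± 0.46 for vincristine minus cytarabine (limma adjusted p = 0.477). None passed the adjusted threshold. These contrasts share parental libraries.

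The 39 other listed folate and nucleotide genes also held no call in the drug comparisons (0 of 39 in each, beside 0% of all genes). Slc46a1, Folr1, Folr2, Abcc3, Mthfs, Aldh1l1, Aldh1l2, Ftcd and Gldc had no row. Dctd, a deoxycytidylate deaminase, had the smallest p among them for cytarabine, -3.35 ± 0.78 (limma adjusted p = 0.494). It had 0 reads in the 2883 and 2869 cytarabine derivatives, against 282 and 440 in their parental libraries (at least 133- and 184-fold lower). In 7298 cytarabine it had 662 reads, against 426 in its parental library (1.11; 0.98 to 1.26). The serine synthesis enzymes Phgdh, Psat1 and Psph were at -0.51 ± 0.21, -0.63 ± 0.22 and -0.62 ± 0.26 with prednisone (limma adjusted p = 0.57, 0.534 and 0.57). Phgdh was at 0.53 ± 0.18 with vincristine (limma adjusted p = 0.295), and Adssl1 at 1.66 ± 0.49 with etoposide (0.557). Adssl1 was past 2-fold in 2883 etoposide. In 2696 etoposide, 0 of the 36 listed genes with at least 50 reads were past 2-fold.

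The exporters varied between derivatives. Abcc1 was 6.87-fold higher in 2883 etoposide (1661 reads, against 206) and 4.34-fold higher in 2883 vincristine, but at 0.787 to 1.35 of parental in the other derivatives apart from methotrexate. Its fitted change with etoposide was 1.48 ± 0.52 (limma adjusted p = 0.557). Abcc2, at 19 reads or fewer in every parental library, reached 127 reads in 2883 etoposide and 107 in 2883 cytarabine. Abcc4 stayed at 0.804 to 1.5 of parental and Abcc5 at 0.489 to 1.78. Abcg2 had 75 reads in 2883 prednisone, against 9 in its parental library, and 138 in 2641 prednisone, against 206. Prps1, a phosphoribosyl pyrophosphate synthetase, had 0 reads in 2869 vincristine, against 1231. Mthfd2l had 0 reads in 2883 vincristine, against 109, but 186 in 2869 vincristine, against 20 (7.3; 4.59 to 12.2). With cytarabine it had 24 reads in 2883, against 109, and 92 in 2869, against 20.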

How the data were processed

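Labels give 16 stranded mRNA libraries, 1 per culture. Cutadapt, STAR, Partek and mm10 are named in the submitters' processing notes; the counting method is not given in the sources used here. The authors deposited FPKM values for 13474 genes; their length is the whole gene span in all 13474 rows, and 0.1 read per gene was added. CPM was therefore computed as FPKM times length, and reads from depth. Of a library's values between 0.5 and 200 reads, only 70.5% to 75.7% fell within 0.05 of whole reads, so no count test was run.

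Limma 3.58.1 in R 4.3.3 (trend) was run on log2(CPM + 1) for 13261 genes at 1 CPM or more in 2 libraries, with 1 term per line and per drug (6 residual degrees of freedom) or 1 for resistance (10). P-values are two-sided, Benjamini-Hochberg adjusted over all genes. Labels pair a derivative with its line; 11 of 11 derivatives correlated best with their own parental library (r 0.91 to 0.98). Ratios have 95% Clopper-Pearson intervals, floor 3 reads. The intervals treat recovered reads, rounded to whole numbers, as counts, so the same limit on whole reads applies to them. Coordinates of all 10 genes equal GENCODE vM21. The limma script was tested on simulated data. Those data held planted changes and simulated count noise, without the other differences between these cultures. They do not show which changes the fits could detect here. Named genes were the 10, listed pathway genes with a call, the 5 smallest p or 2-fold in the methotrexate derivative, the exporters, and genes near or most like Slc19a1. Members and lists were chosen with earlier results of these data known. Genes not selected by this rule but shown (neighbours of Tyms, Shmt1 and Gart, Prps1, Mthfd2l, Abcb1a) were picked after their values were seen. One listed pathway gene is not reported here.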

Additional observations from a re-analysis of the deposited data

Results flagged for a closer look

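Atic was unevenly spread over the 5 parental libraries. Line 2696 was at 443 CPM, and the other 4 parental libraries were at 266 to 307 CPM. On log2(CPM + 1) the gap to the nearest library was 0.722 of the whole range, above the 95% critical value of 0.71. Chance flags about 1 in 20 such groups, and 10 genes were looked at. Both derivatives of 2696 were likewise high, at 446 CPM with vincristine and 412 CPM with etoposide. Among derivatives this was not limited to line 2696, since 7298 cytarabine was at 451 CPM and 2883 etoposide at 396 CPM.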

How the results depend on the processing

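Limma called 0 of the 10 genes in all 11 comparisons and in all 253 alternative fits of them. On the FPKM scale only 9 of the 10 were tested, since Ggh did not pass the filter there. The 23 settings included 16 that left out 1 library each. Of 1145 alternative values of the 50 fold changes against parental, 0 passed the threshold and 53 changed sign; the cause was not tested. Over the whole table, where limma called 0 genes in each comparison with parental, it called 2 for prednisone on the FPKM scale, 4 for vincristine with no block, and 1 each for cytarabine and vincristine without line 7298. Leaving out 1 library gave up to 1 gene for cytarabine, 9 for vincristine (without the parental library of 2696), 33 for etoposide (without the 2696 derivative; 19 without that of 2883) and 11 for prednisone (without either library of 2641). These etoposide and prednisone fits each rest on 1 derivative with a parental library, which is assumed to vary like the other groups. Contrasts between drugs gave 0 to 24 genes. All are log2 fold changes. With no replicate block for the cell line, Slc19a1 was at 0.019 for cytarabine and -0.30 for etoposide, Mthfd1 at -0.13 and Gart at -0.26 for etoposide, and Tyms at 0.072 for prednisone; the block changed no call of the 10 genes. Without both libraries of 7298, Fpgs was at -0.12 for cytarabine and Mthfd1 at -0.072 for etoposide and -0.051 for all resistant cultures. Ggh was at -0.17 for all resistant cultures with a pseudocount of 0.1. Shmt2 with etoposide was at 0.012 with median-of-ratios scaling and 0.0019 with quantile normalization.

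Leaving out 1 library at a time gave these ranges where a sign changed. For etoposide they were -0.079 to 0.41 (Atic), -0.063 to 0.36 (Fpgs), -0.18 to 0.26 (Gart), -0.077 to 0.19 (Mthfd1), -0.28 to 0.27 (Shmt2) and -1.14 to 0.40 (Tyms). For vincristine they were -0.023 to 0.23 (Atic) and -0.19 to 0.0014 (Fpgs). For cytarabine they were -0.12 to 0.25 (Fpgs), -0.57 to 0.063 (Mthfd1), -0.33 to 0.019 (Shmt1), -0.30 to 0.13 (Slc19a1) and -0.19 to 0.31 (Tyms). For prednisone they were -0.35 to 0.21 (Mthfd2), -0.0041 to 0.33 (Shmt1), -0.20 to 0.75 (Slc19a1) and -0.19 to 0.20 (Tyms). For all resistant cultures they were -0.20 to 0.27 (Ggh), -0.051 to 0.18 (Mthfd1), -0.038 to 0.21 (Shmt1), -0.42 to 0.099 (Slc19a1) and -0.055 to 0.49 (Tyms).

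The Slc19a1 difference of the methotrexate derivative on log2(CPM + 1), -4.99, is set by the pseudocount, since the derivative had 0 reads, and is no estimate of the ratio, whose bound is at least 146-fold lower. It was -1.06 on the FPKM scale, -4.96 with median-of-ratios scaling and -5.04 with quantile normalization. Leaving that library out of the correlations with Slc19a1 was an alternative chosen after seeing the data.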
